A study of Chlorocebus aethiops with 36 samples.

Results

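Genes that mark Kupffer cells and other macrophages were followed through liver biopsies of 12 male African green monkeys. They comprised 6 genes of resident Kupffer cells (C1QA, C1QB, C1QC, MARCO, VSIG4 and CD163), 3 genes that are abundant in monocytes (CD14, CTSS and LYZ) and the general macrophage gene CD68. Every probe set whose platform annotation named 1 of these 10 symbols and no other gene was taken, which gave 14 of the 54675 probe sets on the array and covered 9 of the 19775 genes with a probe set of their own. The only probe set of CD68 also named a small nucleolar RNA gene, so no value is given for CD68. A filter on low signal, a mean over all arrays of at least 4.459 on the log2 scale, was passed by 12 of the 14 probe sets and by all 9 of these genes. Below it lay 1 further probe set of CD163, with a mean of 3.45, and 1 of CTSS, with a mean of 3.21.

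The animals formed 2 arms of 6. In the anti-miR-33 arm they received an oligonucleotide that binds and blocks the microRNA miR-33, and in the control arm a control anti-miR, both injected subcutaneously at 5 mg/kg. Biopsies were taken from every animal before treatment (week -5, called baseline, chow), during treatment on chow (week 4) and at the end of treatment (week 12), when both arms had eaten a diet high in carbohydrate and moderate in cholesterol for 8 weeks. RNA was measured on human Affymetrix arrays, so human probes met monkey transcripts and a level is compared between groups for a given probe set and never between probe sets. Values are deposited log2 signals. A gene is described by its probe set of highest mean, and its other probe set is given beside it. Animals are numbered within their arm by the labels' replicate number.

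Kupffer cells are the macrophages that live in the liver sinusoids, where they take up particles, lipoproteins and ageing red cells from the blood. Resident Kupffer cells carry scavenger and complement receptors and make the recognition protein of the classical complement pathway. Monocytes enter from the blood and can turn into macrophages in the tissue, and markers of the sets overlap, since CD14 and the lysosomal genes are also expressed by resident macrophages and CD14 by hepatocytes.

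The values by which RNA quality was read differed between times. The difference between the 3′ and 5′ control probe sets, averaged over GAPDH and ACTB, was 2.57 ± 0.43 at week -5, 1.94 ± 0.41 at week 4 and 1.83 ± 0.16 at week 12 (log2, SD, n = 12 each). It was lower at week 12 than at baseline in 11 of 12 animals (exact permutation p = 9.77e-04, two-sided) and lower at week 4 in 10 of 12 (exact permutation p = 0.00195), while for the difference between arms the exact permutation p was 0.327 before treatment, 0.913 at week 4 and 0.665 at week 12. The week 4 arrays carry a separate run of array numbers in the labels, so a difference between week 4 and another time cannot be told apart from a difference between those runs. The week 4 array of control animal 1 is labelled with the high carbohydrate diet, unlike the other 11, and leaving it out changed no call of a Kupffer cell or monocyte gene.

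The largest changes were in lysozyme and cathepsin S, whose RNA was higher at week 12 than at baseline over both arms. Within the anti-miR-33 arm alone, LYZ did not pass by its probe set of highest mean and passed by the other. Of the 6 resident genes, 2, MARCO and CD163, were lower over both arms. Over both arms, 2 of the 9 genes were higher and 2 lower at week 12 by limma's moderated test at an adjusted p of 0.05, against 25.9% of all 22391 tested probe sets called in this comparison. The 4 calls among 9 genes are to be read against that share, and the genes differed from each other in direction. In a bulk biopsy, fewer cells of a type and less RNA per cell cannot be told apart.

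**Figure D1:**
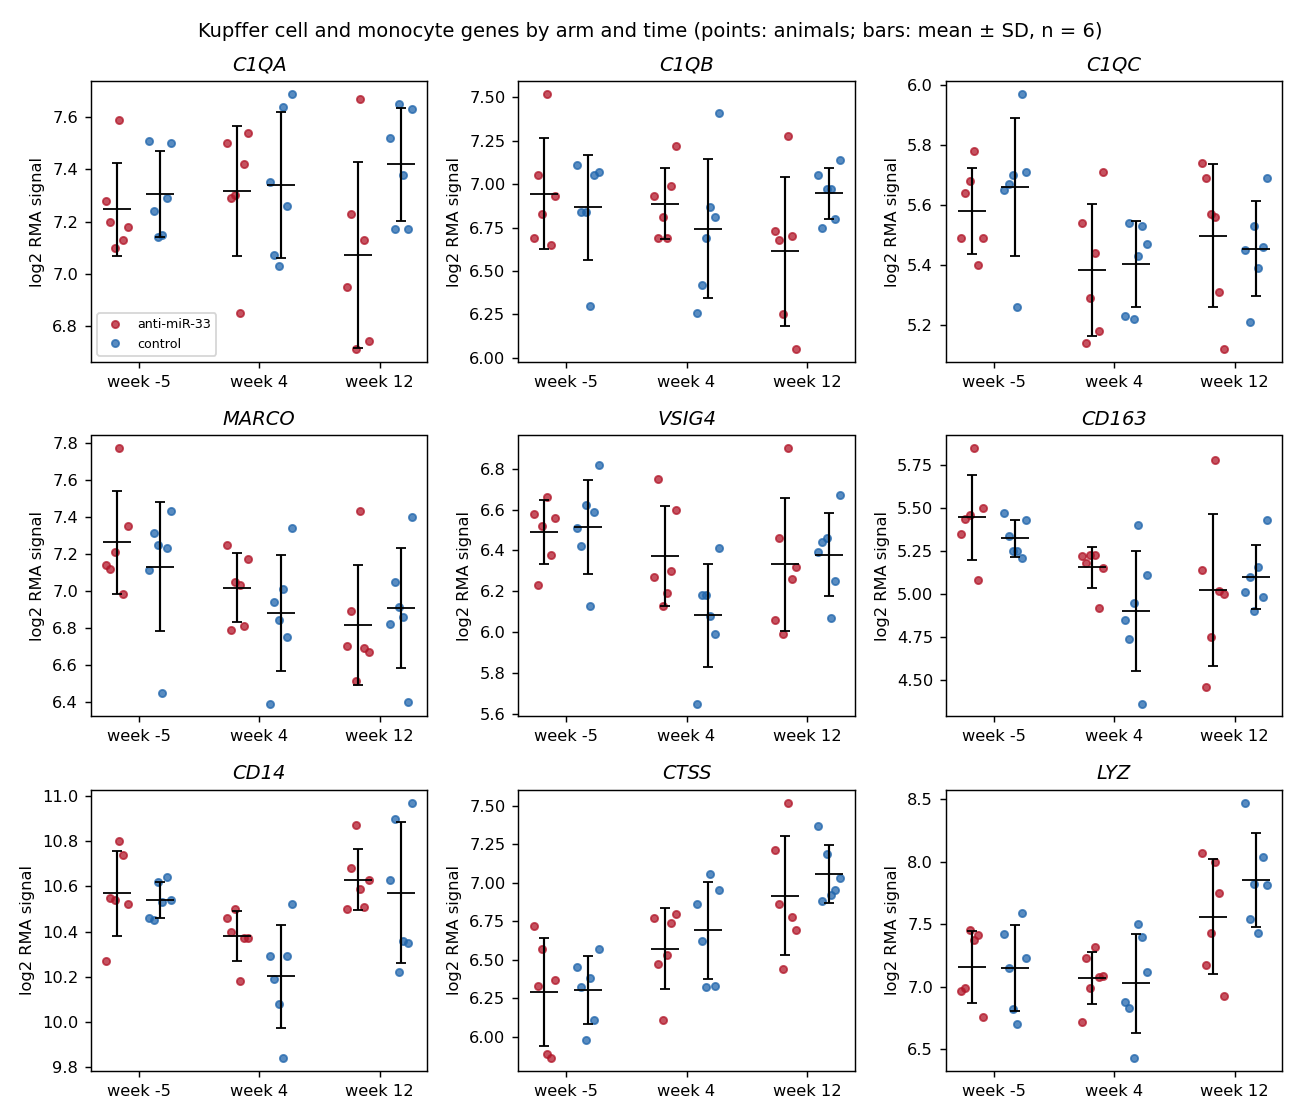
Log2 signal of the 9 genes, each by its probe set of highest mean, at weeks -5, 4 and 12 in 6 anti-miR-33 animals (left of each pair) and 6 control animals (right of each pair). Points are animals and bars are the mean and SD. LYZ and CTSS sit highest at week 12 in both arms, and MARCO and CD163 sit highest at week -5 in both arms.

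LYZ encodes lysozyme, an enzyme of monocyte, macrophage and neutrophil granules that cuts bacterial cell walls. The lowest, median and highest of the 12 animals were 6.70, 7.19 and 7.59 at week -5, 6.43, 7.09 and 7.50 at week 4, and 6.93, 7.78 and 8.47 at week 12. Compared with baseline, the week 12 level was higher in 11 of 12 animals, by 0.55 ± 0.12 (SE, a fold of 1.46, adjusted p = 9.69e-04 in limma), and the ranges of the 2 times overlapped. The other LYZ probe set, at 4.69, 5.24 and 5.68 at week -5, 5.09, 5.55 and 5.87 at week 4 and 5.55, 6.03 and 7.11 at week 12, was higher in 12 of 12 animals by 0.93 ± 0.12 (limma adjusted p = 4.61e-07).

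The LYZ probe sets differed at week 4. The probe set of highest mean differed from baseline by -0.11 ± 0.12 (limma adjusted p = 0.531) and the other by 0.36 ± 0.12 (limma adjusted p = 0.0177). Between week 4 and week 12 both were higher at the later time, by 0.66 ± 0.12 and 0.57 ± 0.12 (limma adjusted p = 2.22e-04 and 6.39e-04). Among anti-miR-33 animals at week 12, animals 1 and 4 had the highest LYZ levels, 8.07 and 8.00 by the probe set of highest mean, and among control animals, animal 1 had the highest, 8.47 by that probe set and 7.11 by the other.

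CTSS encodes cathepsin S, a lysosomal protease that trims the invariant chain of MHC class II in antigen-presenting cells. Its lowest, median and highest levels were 5.86, 6.35 and 6.72 at week -5, 6.11, 6.68 and 7.06 at week 4, and 6.44, 6.94 and 7.52 at week 12. All 12 animals at week 12 lay above the baseline median, and 11 of 12 were above their own baseline, with a change of 0.69 ± 0.11 (a fold of 1.61, limma adjusted p = 8.38e-06). In the control arm the levels ran from 6.88 to 7.37 at week 12 and from 5.98 to 6.57 at baseline. How many of all tested probe sets had ranges as far apart is not given. By limma's test, a different measure, 8.59% of them were called in that comparison.

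Cathepsin S was already higher at week 4, by 0.33 ± 0.11 in 11 of 12 animals (limma adjusted p = 0.0131), and was higher again at week 12 than at week 4, by 0.36 ± 0.11 (limma adjusted p = 0.0123). The week 4 call rested in part on anti-miR-33 animal 5, without which the change was 0.27 (limma adjusted p = 0.0552). The other CTSS probe set moved less, with changes from baseline of 0.14 ± 0.06 at week 4 and 0.17 ± 0.06 at week 12 (limma adjusted p = 0.0437 and 0.0215), and 0.03 ± 0.06 between week 4 and week 12. After subtraction of group means, these CTSS probe sets had a correlation of -0.09 over 36 arrays, against 0.60 for the LYZ pair and 0.42 for the CD163 pair. The order of arrays within groups thus differed between them. The CTSS probe set below the filter went the other way at week 4 and was not tested. Its means were 3.38, 3.00 and 3.26 at weeks -5, 4 and 12. At week 4 it was below baseline in 6 of 6 anti-miR-33 animals and 5 of 6 control animals.

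CD14, the co-receptor that passes bacterial lipopolysaccharide to TLR4, followed another course. From lowest through median to highest, it lay at 10.27, 10.54 and 10.80 at week -5, 9.84, 10.33 and 10.52 at week 4, and 10.22, 10.61 and 10.97 at week 12. It was lower at week 4 than at baseline in 11 of 12 animals, by -0.26 ± 0.07 (limma adjusted p = 0.00421), and higher at week 12 than at week 4 in 12 of 12, by 0.31 ± 0.07 (limma adjusted p = 0.00174). Week 12 and baseline differed by 0.05 ± 0.07 (limma adjusted p = 0.699), so the course was a dip at the time whose arrays carry the separate run of numbers.

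Of the monocyte genes, 3 of 3 were higher at week 12 than at week 4, while 0 of the 6 resident genes passed the test in that comparison, in which 26.3% of all tested probe sets were called. The median change was 0.36 over the monocyte genes and -0.00 over the resident genes, against 0.01 over all tested probe sets. At week 4 against baseline 1 monocyte gene was higher and 1 lower, and 3 resident genes were lower, where 36.5% of all tested probe sets were called.

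CD163 is the receptor that clears haemoglobin bound to haptoglobin, and it had the largest drop of the resident genes at week 4. The 12 animals had a lowest, median and highest level of 5.08, 5.39 and 5.85 at week -5, 4.36, 5.13 and 5.40 at week 4, and 4.46, 5.02 and 5.78 at week 12. It was lower than baseline by -0.36 ± 0.10 at week 4 (11 of 12 animals, limma adjusted p = 0.00345) and by -0.33 ± 0.10 at week 12 (11 of 12 with 1 unchanged, limma adjusted p = 0.00984). The other CD163 probe set changed by -0.39 ± 0.09 and -0.38 ± 0.09 (limma adjusted p = 0.00122 and 0.00226), lower in 12 of 12 animals at week 4 and 10 of 12 at week 12.

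MARCO is a class A scavenger receptor that binds bacteria and modified lipoproteins. Levels of MARCO, given as lowest, median and highest, were 6.45, 7.22 and 7.77 at week -5, 6.39, 6.98 and 7.34 at week 4, and 6.40, 6.84 and 7.43 at week 12. At week 12 it was below baseline in 11 of 12 animals, by -0.34 ± 0.10 (limma adjusted p = 0.0151), and without control animal 5 the change was -0.27 (limma adjusted p = 0.0657). At week 4 the change of -0.25 ± 0.10 did not pass (limma adjusted p = 0.0596), although it passed without control animal 4, control animal 6 or anti-miR-33 animal 1 (limma adjusted p = 0.0104, 0.043 and 0.0453), without the week 12 array of control animal 5 (0.0479) and with the animal as a fixed block (0.0331).

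VSIG4, the complement receptor of the immunoglobulin family through which Kupffer cells capture C3-coated particles, was lower at week 4 but not at week 12 by the test. VSIG4 levels, in the same order, were 6.13, 6.54 and 6.82 at week -5, 5.65, 6.19 and 6.75 at week 4, and 5.99, 6.36 and 6.90 at week 12. Changes from baseline were -0.27 ± 0.09 at week 4 (10 of 12 animals lower, limma adjusted p = 0.0127) and -0.15 ± 0.09 at week 12 (9 of 12 lower, limma adjusted p = 0.233).

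C1q, the recognition part of the classical complement pathway, is built of the products of C1QA, C1QB and C1QC, and only C1QC among these passed the test for time. Its lowest, median and highest levels were 5.26, 5.66 and 5.97 at week -5, 5.14, 5.44 and 5.71 at week 4, and 5.12, 5.50 and 5.74 at week 12. It was lower at week 4 by -0.23 ± 0.07 (9 of 12 animals, limma adjusted p = 0.0142) and differed by -0.14 ± 0.07 at week 12 (limma adjusted p = 0.154). C1QA and C1QB differed from baseline by 0.05 ± 0.09 and -0.09 ± 0.11 at week 4, and by -0.03 ± 0.09 and -0.13 ± 0.11 at week 12 (limma adjusted p from 0.461 to 0.856), with animals in both directions. The difference between C1QC and the other chains was not tested.

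Because the RNA quality value moved with time, the same fit was made with it as a covariate. At week 12 against baseline, the LYZ change was then 0.84 ± 0.16 by the probe set of highest mean and 0.82 ± 0.17 by the other (limma adjusted p = 0.00131 and 0.00236), and LYZ was the only one of the 9 genes called by its probe set of highest mean, where 4.8% of all tested probe sets were called. CTSS was at 0.41 ± 0.14 (limma adjusted p = 0.073), and the second CTSS probe set was at 0.26 ± 0.08 (0.0381). MARCO was at -0.17 ± 0.14 and CD163 at -0.27 ± 0.14 (limma adjusted p = 0.563 and 0.269). At week 4 against baseline 0 of the 9 genes passed with the covariate, where 25.2% of all tested probe sets did. There CD163 was at -0.31 ± 0.13 (limma adjusted p = 0.063), and the second CD163 probe set was at -0.37 ± 0.12 (0.024), and CD14 at -0.19 ± 0.09 (limma adjusted p = 0.134). Between week 4 and week 12 the quality value differed by -0.11 ± 0.11 (SE, exact permutation p = 0.333), a mean of opposite changes in its control genes. GAPDH was at -0.41 ± 0.11, lower in 10 of 12 animals (exact permutation p = 0.00635). ACTB was at 0.18 ± 0.12, higher in 8 of 12 (exact permutation p = 0.178). CD14, CTSS and LYZ were called in that comparison with the covariate as without it.

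**Figure D2:**
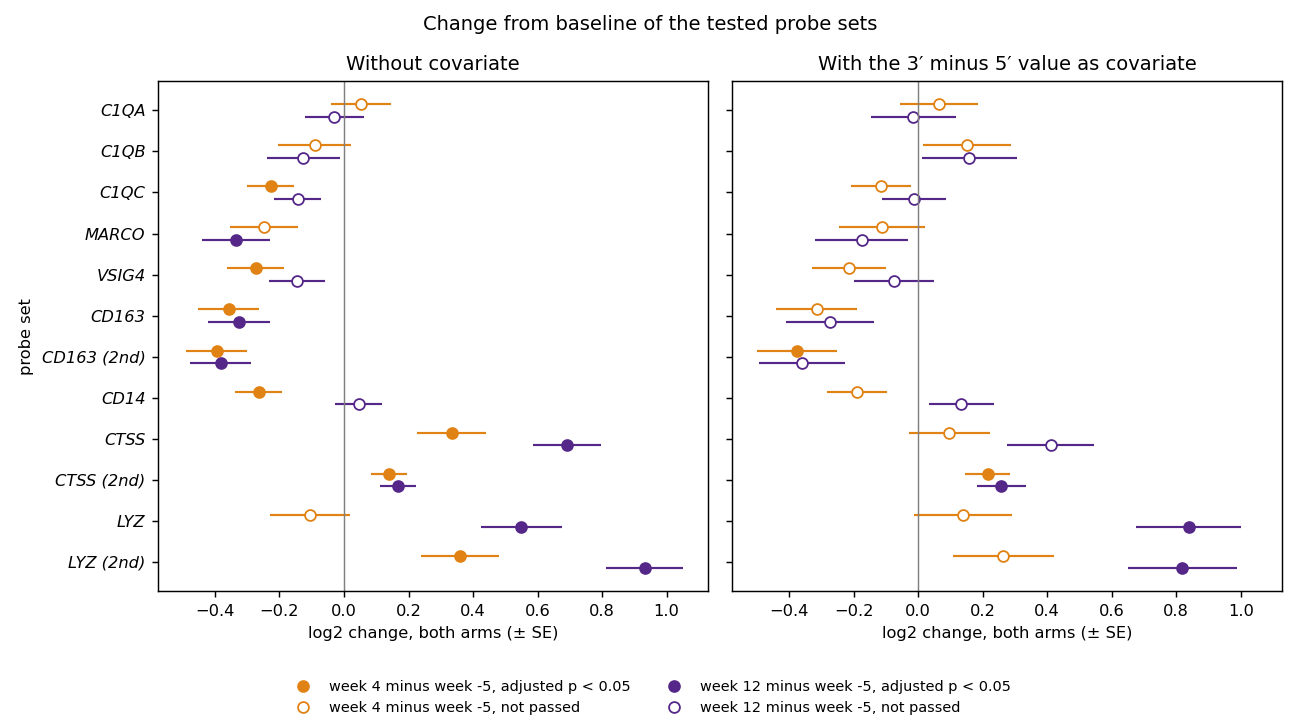
Log2 change from week -5 to week 4 and to week 12 over both arms, with its SE, for the 12 tested probe sets, without (left panel) and with (right panel) the 3′ minus 5′ value of the control probe sets as a covariate. Filled points passed an adjusted p of 0.05; both LYZ probe sets stay filled at week 12 with the covariate, at 0.84 and 0.82, and MARCO, at -0.17, does not.

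The distance between the monocyte genes and the resident genes was also followed within each animal. LYZ minus C1QA, C1QB, C1QC, MARCO or CD163 was higher at week 12 than at baseline in 12 of 12 animals for each, and LYZ minus VSIG4 in 11 of 12, with median changes of 0.50 to 0.77. CTSS minus C1QA, MARCO, VSIG4 or CD163 was higher in 12 of 12 animals and CTSS minus C1QB or C1QC in 11 of 12, with median changes of 0.73 to 0.97. CD14 minus a resident gene was higher in 7 to 10 of 12 animals. Each of these differences shares its LYZ, CTSS or CD14 value, so they are not separate results. LYZ and CTSS were themselves higher than baseline in 11 of 12 animals. A wider distance from genes that rose less largely follows from that rise. The same differences from genes outside the resident set are not given, so the counts show nothing particular to the resident genes.

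**Figure D3:**
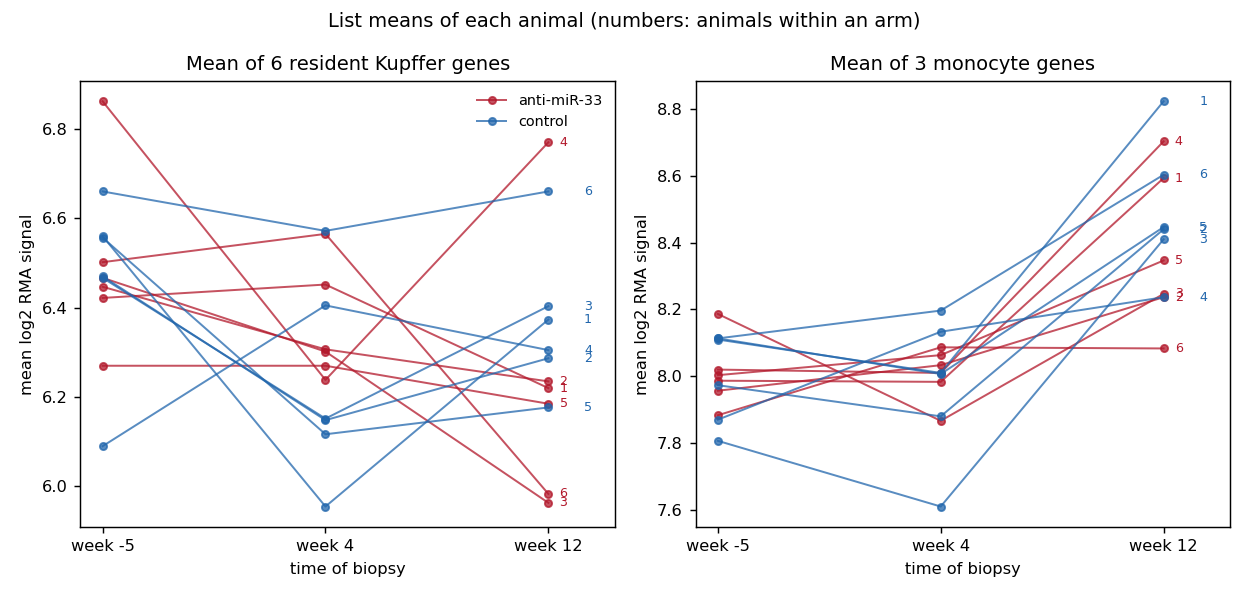
Mean log2 signal of the 6 resident Kupffer genes (left) and of the 3 monocyte genes (right) in each animal at weeks -5, 4 and 12. Lines are animals, numbered within their arm at week 12; the monocyte mean lies between 8.08 and 8.82 at week 12, against 7.81 to 8.19 at week -5, and the resident lines cross.

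Between the arms, none of the 9 genes passed the test at any time. Called shares over all tested probe sets were 0% at baseline, 0% at week 4 and 0.00447% at week 12, where the 1 called probe set was that of PIN4, a peptidyl-prolyl isomerase (0.47 ± 0.08, limma adjusted p = 0.0342). Counts at an unadjusted p below 0.05 were 882, 1137 and 671 of 22391. In simulated data of this size, 100 probe sets differed between arms by 0.4 and 100 by 0.8. Of these, 45% and 96% were recovered, so a small difference could pass unseen. The adjusted threshold is stricter where fewer probe sets differ, so recovery of a lone difference may be lower and was not simulated.

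C1QA had the largest difference between arms at week 12. Its lowest, median and highest levels were 6.71, 7.04 and 7.67 in anti-miR-33 animals, against 7.17, 7.45 and 7.65 in control animals. The difference was -0.35 ± 0.14 (limma adjusted p = 0.999), with 5 of 6 anti-miR-33 animals below the control median and anti-miR-33 animal 4 at the top of both groups. C1QB lay at 6.05, 6.69 and 7.28 in anti-miR-33 animals, against 6.75, 6.97 and 7.14 in control animals, a difference of -0.33 ± 0.17 (limma adjusted p = 0.999). Leaving out each animal moved the C1QA difference between -0.47 and -0.28 and the C1QB difference between -0.46 and -0.22, the smallest C1QB value being without anti-miR-33 animal 6. C1QC, the third chain, differed by 0.04 ± 0.11.

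At week 4 the largest difference was in VSIG4, at 6.13, 6.29 and 6.75 in anti-miR-33 animals, against 5.65, 6.13 and 6.41 in control animals (0.29 ± 0.13, limma adjusted p = 0.972). CD163 differed by 0.25 ± 0.15 and CD14 by 0.18 ± 0.11 at that time (limma adjusted p = 0.991 and 0.993), and the CD163 difference lay between 0.145, without control animal 5, and 0.353 when each animal was left out. LYZ differed by 0.05 ± 0.19 at week 4 and by -0.29 ± 0.19 at week 12, and CTSS by -0.12 ± 0.16 and -0.14 ± 0.16, and neither passed the test. Without 1 animal the LYZ difference at week 12 ran from -0.40 to -0.17. At baseline, before treatment, the 9 differences ran from -0.08 to 0.13.

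**Figure D4:**
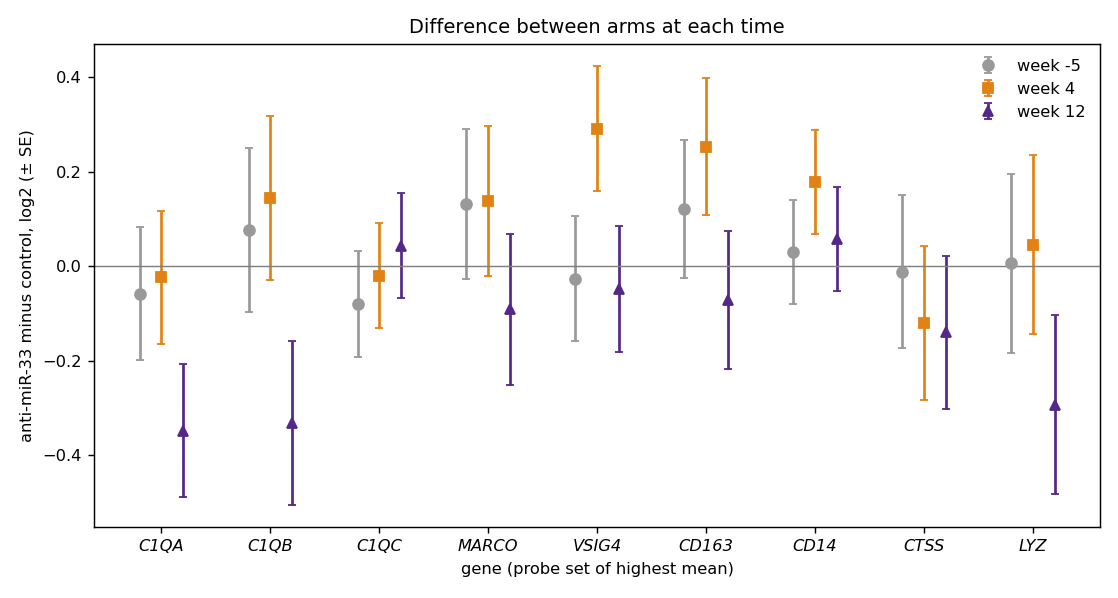
Difference between arms (anti-miR-33 minus control, log2) with its SE for the 9 genes at weeks -5, 4 and 12. No difference passed the test; the widest are C1QA (-0.35) and C1QB (-0.33) at week 12.

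The change over time was not called different between arms for any of the genes. The called share was 0% for each of the intervals, baseline to week 4, baseline to week 12 and week 4 to week 12, with 766, 505 and 810 probe sets at an unadjusted p below 0.05. From week 4 to week 12, 8 of the 9 genes had a negative difference in change, with a median of -0.33 against -0.01 over all tested probe sets, and C1QB the widest at -0.48 ± 0.23 (limma adjusted p = 0.999), or -0.30 without anti-miR-33 animal 6. From baseline to week 12, 7 of 9 were negative, with a median of -0.19 against 0.01.

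Within the anti-miR-33 arm, 1 gene was higher and 2 were lower at week 12 than at baseline, where 15.3% of all tested probe sets were called. CTSS was higher by 0.63 ± 0.15 (limma adjusted p = 0.00404), and without animal 4 by 0.43 (0.0706), with the other CTSS probe set at 0.24 ± 0.08 (0.0343). MARCO was lower in 6 of 6 animals by -0.45 ± 0.15 (limma adjusted p = 0.0351), and its adjusted p was above 0.05 without animal 1, 2, 3, 5 or 6 (0.0508 to 0.126). CD163 was lower by -0.42 ± 0.14 in 6 of 6 animals (limma adjusted p = 0.0292), and above 0.05 without animal 2, 3 or 6 (0.09 to 0.156), while the other CD163 probe set, at -0.35 ± 0.13, did not pass (0.0687). The MARCO and CD163 calls were also lost with no filter on dim probe sets (limma adjusted p = 0.0625 and 0.0521) and with no block for the animal (0.0721 and 0.0604). With the RNA quality covariate all 3 calls of this arm were lost (limma adjusted p = 0.653 for MARCO, 0.421 for CD163 and 0.555 for CTSS). LYZ was at 0.40 ± 0.18 (limma adjusted p = 0.125), and at 0.26 without animal 1, by its probe set of highest mean, and at 0.72 ± 0.17 by the other, which passed (0.00337).

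Within the control arm, CTSS was higher in 6 of 6 animals by 0.76 ± 0.15 and LYZ in 6 of 6 by 0.70 ± 0.18 at week 12 against baseline (limma adjusted p = 0.00128 and 0.00964). LYZ had 0.64 without animal 3 (limma adjusted p = 0.0536), and CTSS had 0.53 with the RNA quality covariate (0.0528). The other LYZ probe set was higher by 1.14 ± 0.17 (limma adjusted p = 2.77e-05) and the other CTSS probe set was at 0.10 ± 0.08 (0.501). None of the 6 resident genes was called by its probe set of highest mean there, while the other CD163 probe set was lower by -0.41 ± 0.13 (limma adjusted p = 0.046). These counts are to be read against the 8.59% of all tested probe sets called in that comparison, 2.93% higher and 5.66% lower.

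At week 4 against baseline 0 of 9 genes were called in the anti-miR-33 arm by the probe set of highest mean, where 19.6% of all tested probe sets were, and the other CTSS probe set was higher there by 0.22 ± 0.08 (limma adjusted p = 0.044). In the control arm VSIG4 (-0.43 ± 0.12), CD163 (-0.42 ± 0.14) and CD14 (-0.34 ± 0.10) were lower (limma adjusted p = 0.0121, 0.0252 and 0.0184), where 18.3% of all tested probe sets were called. The other CD163 probe set was lower in 6 of 6 control animals, by -0.50 ± 0.13 (limma adjusted p = 0.00795). The calls by the probe sets of highest mean were lost without control animal 1 or 5 for VSIG4 (limma adjusted p = 0.0731 and 0.052), without 1, 2, 3 or 5 for CD163 (0.0506 to 0.111) and without 3 or 4 for CD14 (0.0672 and 0.0842). The CD163 call was also lost with no block for the animal (limma adjusted p = 0.0518) and the CD14 call after quantile normalization (0.063), and both with the RNA quality covariate (0.0739 and 0.0858). C1QC gained a call without control animal 4 (limma adjusted p = 0.0289) and CTSS without anti-miR-33 animal 3 or 4 (0.0481 and 0.0412).

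From week 4 to week 12, 0 of 9 genes were called in the anti-miR-33 arm and CD14 (0.37 ± 0.10) and LYZ (0.83 ± 0.18) were higher in the control arm (limma adjusted p = 0.0216 and 0.00454), against 11.8% and 7.76% of all tested probe sets. The CD14 call was lost without control animal 2 or 4 (limma adjusted p = 0.111 and 0.0508) and after quantile normalization (0.0517). The other LYZ probe set was at 0.43 ± 0.17 in the anti-miR-33 arm and at 0.71 ± 0.17 in the control arm (limma adjusted p = 0.0886 and 0.00866). In the anti-miR-33 arm LYZ was at 0.49 ± 0.18 by its probe set of highest mean (limma adjusted p = 0.0632), and leaving out each animal gave 0.31, without anti-miR-33 animal 1, to 0.62, without anti-miR-33 animal 6. It passed without anti-miR-33 animal 6 (limma adjusted p = 0.0319), without control animal 4 (0.0448), with the animal as a fixed block (0.0497) and with the RNA quality covariate (0.0275). Without anti-miR-33 animal 4, C1QA was lower from week 4 to week 12 in that arm, by -0.46 (limma adjusted p = 0.00925), against -0.25 ± 0.13 with it (0.22).

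The resident genes tended to vary together over the arrays of a group. After group means were subtracted, the 15 pairs of resident genes had a Pearson r from 0.09 to 0.77 over 36 arrays, with a median of 0.54. Each animal gave 3 of these arrays, so r mixes differences between animals with differences between arrays of the same animal. It is given with no test, and r for pairs of genes outside the sets is not given. C1QA and C1QB had the highest r, 0.77, followed by C1QB and MARCO at 0.76 and MARCO and VSIG4 at 0.71, while C1QC and CD163 had 0.09. The 3 pairs of monocyte genes lay between -0.37 and 0.30, with CD14 and CTSS at -0.37, and the 18 pairs across the sets had a median of 0.22.

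**Figure D5:**
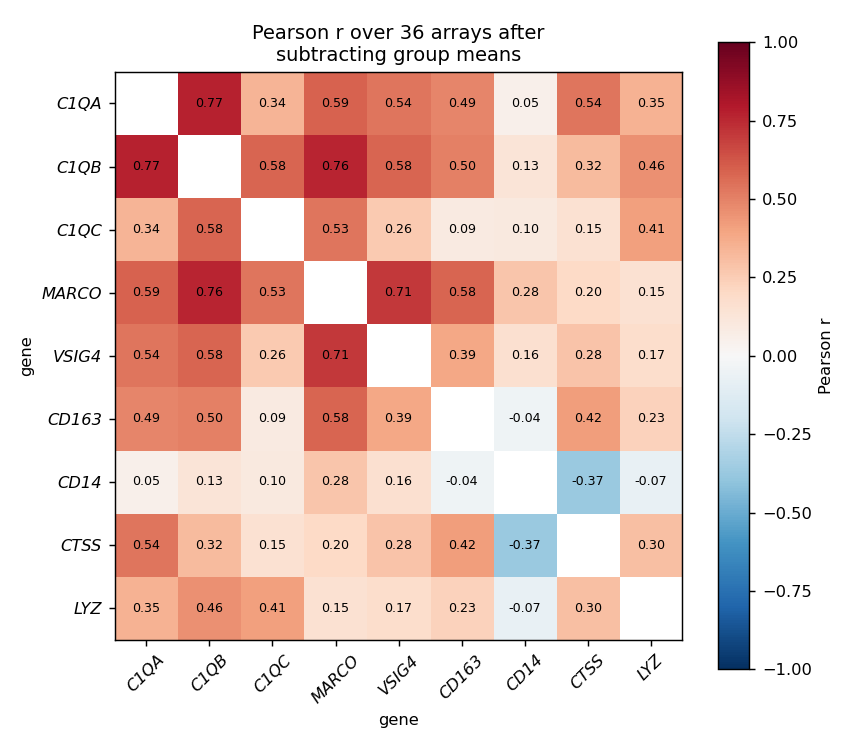
Pearson r between the 9 genes over 36 arrays after subtraction of the 6 group means, each gene by its probe set of highest mean. The highest values are those of C1QA and C1QB (0.77), C1QB and MARCO (0.76) and MARCO and VSIG4 (0.71), and CD14 has values from -0.37, with CTSS, to 0.28, with MARCO.

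Single animals lay at the ends of several resident genes at once. Anti-miR-33 animal 4 had the highest level of 12 animals for 4 of the 6 resident genes at baseline and for 5 of 6 at week 12, and for 0 of 6 at week 4. Control animal 4 had the lowest level for 4 of 6 at baseline and for 0 of 6 at both later times. At week 4, control animal 6 had the highest level for 3 of 6 and control animal 1 the lowest for 3 of 6. The mean of the resident genes in anti-miR-33 animal 4 was 6.86 at week -5, 6.24 at week 4 and 6.77 at week 12, and in control animal 4 it was 6.09, 6.41 and 6.31. In control animal 6 that mean was 6.66, 6.57 and 6.66, at rank 2, 1 and 2 of 12 from the highest.

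The genes most like the mean of the resident genes, by the same correlation within groups over 13625 genes, were CFP (0.76), which encodes properdin, the stabiliser of the alternative complement pathway, and FCER1G (0.74), the signalling chain of Fc receptors, followed by XPA (0.69), NRN1 (0.67), CRAT (0.62), ALYREF (0.62), SEC24C (0.61) and PSAP (0.61). CFP was lower than baseline at week 12 by -0.42 (limma adjusted p = 0.00275), and NRN1, ALYREF, SEC24C and PSAP were lower as well. FCER1G differed by 0.10 (limma adjusted p = 0.496), and XPA and CRAT did not pass. Those most like the mean of the monocyte genes were LAPTM5 (0.75), a lysosomal membrane protein of blood cells, ITGA1 (0.72), RAB31 (0.70), TMSB4X (0.70), HLA-DQB1 (0.69), CLIC1 (0.68), ITGA9 (0.67) and VIM (0.66). Unlike LYZ and CTSS, ITGA9 (-1.21), VIM (-0.50), CLIC1 (-0.35) and ITGA1 (-0.27) were lower at week 12 than at baseline (limma adjusted p = 4.53e-11, 3.18e-04, 0.0125 and 1.50e-04). The others of this set did not pass, where 25.9% of all tested probe sets were called.

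Other genes of tissue macrophages also moved in both directions. Of 31 listed, 22 were tested. At week 4 against baseline, where 36.5% of all tested probe sets were called, 2 were higher and 6 lower, led by CTSL (-0.45 ± 0.06, limma adjusted p = 5.78e-07), NR1H3 (-0.50 ± 0.09, 4.76e-05) and MRC1 (-0.60 ± 0.13, 3.43e-04), the mannose receptor. At week 12 against baseline, where 25.9% of all tested probe sets were called, 0 were higher and 3 lower, NR1H3 (-0.53 ± 0.09), CTSL (-0.25 ± 0.06) and CSF1R (-0.21 ± 0.06), the receptor for the macrophage growth factor (limma adjusted p = 3.14e-05, 0.00224 and 0.0135). The median over the list was -0.03 at week 12 against baseline, beside -0.00 over all tested probe sets. Between week 4 and week 12, where 26.3% of all tested probe sets were called, 7 were higher, among them LGMN (0.33 ± 0.08), MRC1 (0.48 ± 0.13), SLC40A1 (0.34 ± 0.09), the iron exporter, and CTSL (0.20 ± 0.06; limma adjusted p = 0.00198, 0.00513, 0.00621 and 0.0129), and 2 were lower, CTSD (-0.28 ± 0.07) and TYROBP (-0.25 ± 0.08; 0.00371 and 0.0253). The called counts of this list are near the share of all tested probe sets at week 4 and below it at week 12 against baseline. Between week 4 and week 12, 7 of 22 were higher, above the 12.9% of all tested probe sets, and 2 of 22 were lower, against 13.4%. The list was not tested as a whole, and the counts are not a result about macrophage genes as a group. NR1H3, SLC40A1 and the cathepsin genes are also expressed by hepatocytes.

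Other monocyte and neutrophil genes were mostly too dim to test, with 8 of 22 tested. S100A8, S100A12, FCN1 and CCR2, which define blood monocytes or neutrophils, lay below the filter at means over all arrays of 3.74, 3.75, 3.93 and 4.10, and FCN1 had 3.90 at week 12 and 3.93 at baseline. S100A9 and TLR2 were higher at week 12 than at baseline, by 0.20 ± 0.06 and 0.49 ± 0.18 (limma adjusted p = 0.0102 and 0.0373), and 0 of the 8 were lower, against 25.9% of all tested probe sets called. At week 4 against baseline 2 were higher and 2 lower, against 36.5% of all tested probe sets, and between week 4 and week 12 VCAN (0.33 ± 0.07), IL1B (0.24 ± 0.05) and TLR2 (0.58 ± 0.18) were higher (limma adjusted p = 6.58e-04, 0.00105 and 0.0147) and 0 lower, against 26.3% of all tested probe sets. MNDA, a monocyte nuclear gene, was below the filter at 4.09, 4.32 and 4.68 at weeks -5, 4 and 12 and was not tested.

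Markers of other cells of the liver moved in the same samples. Of 8 tested sinusoidal endothelial genes, 6 were lower at week 12 than at baseline, where 25.9% of all tested probe sets were called, led by CLEC4G (-1.35 ± 0.11), FCN2 (-1.47 ± 0.12) and STAB1 (-0.94 ± 0.08) with limma adjusted p between 2.25e-11 and 4.53e-11. Their mean ran from 6.30 to 6.79 in anti-miR-33 animals and from 6.48 to 6.62 in control animals at week 12, against 6.90 to 7.63 in anti-miR-33 animals and 7.14 to 7.66 in control animals at baseline. Of 5 tested blood genes, 2 were lower at week 12, HBB by -1.37 ± 0.23 and ALAS2 by -0.62 ± 0.15 (limma adjusted p = 2.33e-05 and 0.00203). Of 11 genes in the lymphocyte list 1 was lower, PTPRC by -0.75 ± 0.16 (limma adjusted p = 4.91e-04). PTPRC marks leukocytes in general, macrophages and monocytes included, and not lymphocytes alone. Of 7 stellate cell genes 3 were lower, and of 10 hepatocyte genes 1 was higher; the counts of the blood, lymphocyte and hepatocyte lists are to be read against the same 25.9%. At week 4 against baseline, where 36.5% of all tested probe sets were called and CD163, VSIG4, C1QC and CD14 were lower, 1 endothelial gene was higher and 6 were lower, among them FCN2 (-1.33 ± 0.12), CLEC4G (-0.97 ± 0.11), STAB1 (-0.67 ± 0.08) and STAB2 (-0.76 ± 0.09), each in 12 of 12 animals (limma adjusted p between 1.99e-10 and 3.36e-08). The mean of the endothelial genes ran from 6.44 to 6.86 in anti-miR-33 animals and from 6.42 to 7.10 in control animals at week 4. At that time 1 of 11 genes in the lymphocyte list was higher and 3 lower, with the general leukocyte gene PTPRC at -1.40 ± 0.16 (limma adjusted p = 2.54e-08). Of 7 stellate cell genes 3 were lower, and 0 of the blood and hepatocyte genes passed. The part of these other cell types in the changes of the Kupffer cell and monocyte genes was not tested.

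The partners of C1q in the classical pathway, which hepatocytes make, moved in both directions. Of 8 listed, 7 were tested. At week 12 against baseline C1S (0.33 ± 0.06), C4BPA (0.33 ± 0.07) and C5 (0.39 ± 0.08) were higher and C1R (-0.31 ± 0.06) was lower (limma adjusted p = 1.55e-04, 8.23e-04, 6.28e-04 and 2.82e-04), and at week 4 against baseline 4 were higher and 1 lower. Of all tested probe sets, 25.9% were called at week 12 and 36.5% at week 4 against baseline. Of the 3 tested dendritic cell genes none passed over both arms at either time or between them, and within the control arm CLEC10A was lower at week 4 than at baseline in 6 of 6 animals, by -0.30 ± 0.10 (limma adjusted p = 0.0275). Between the arms none of the genes in these lists passed at any time.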

How the data were processed

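The authors deposited log2 values of 54675 probe sets on 36 arrays, made by RMA per the submitters' processing notes (background correction, normalization between arrays and summary of probes). Its version is not given in the sources used here, nor is it known if all arrays went through RMA together. Deposited log2 values ran from 2.41 to 15.07, with array medians between 4.42 and 4.51. No column was left unused. The number of arrays limits the precision, and the highest share of identical values in a pair of arrays was 2.29%.

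Probe sets were named from the platform annotation, which can be old: 41097 had 1 gene, 1801 several and 11777 none listed. Those naming 1 gene with a mean of at least 4.459, the median of all probe sets, were tested (22391 probe sets, 13634 genes). The fit, in limma 3.58.1 under R 4.3.3, used all 36 arrays, a mean for each of 6 groups and a random block for the animal (correlation 0.141), since the animal identifiers in the labels pair the times and give the arm of baseline arrays. Two-sided p-values were adjusted by Benjamini-Hochberg over all tested probe sets within each of 15 comparisons. On simulated data, 85% of the 100 probe sets changed by 0.4 between baseline and week 12 were recovered. A far smaller share of probe sets was made to differ there than the 25.9% called in the data. The adjusted threshold therefore differed, and the recovery in the data may be another. The RNA quality value was tested by exact permutation of signs within animals, or of arms, with smallest p of 4.88e-04 and 0.00216.

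The genes and lists were chosen with earlier results of these data known. Named genes were all listed genes, up to 4 per direction of each list by smallest p, and the 8 genes most like each mean. Changes over time of the genes most like each mean, MNDA and the dim monocyte genes are given beside them. Alternatives covered the filter, 1 probe set per gene, the block, the variance model, array weights, quantile normalization, the RNA quality covariate and leaving out arrays or animals; leaving out the week 4 array of control animal 1 or all week 4 arrays was added after seeing the data.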

Additional observations from a re-analysis of the deposited data

Results flagged for a closer look

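In 5 of the 54 groups of 6 animals tested, 1 animal lay far from the other 5 relative to the range of its group; chance alone gives about 1 in 20 groups. C1QA in anti-miR-33 animal 4 was 7.59 at baseline, with the next animal at 7.28, and 6.85 at week 4, with the next at 7.29, so the same animal was high at the first time and low at the second. Control animal 4 was low at baseline for C1QB, at 6.30 with the next animal at 6.84, and for MARCO, at 6.45 with the next at 7.11. CD163 in anti-miR-33 animal 5 was 4.92 at week 4, with the next at 5.15. None of 27 differences between arms in a gene's change over time passed limma's test of that difference.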

How the results depend on the processing

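Over 2997 single-gene values under 23 alternatives, 2941 kept their side of the threshold, 43 lost a call, 13 gained one and 0 reversed. A change of sign was counted only if either value passed, so the 2941 include values that changed sign and missed the threshold both ways. The RNA quality covariate moved most counts of the 9 genes called: to 0 at week 4 against baseline and 1 at week 12 against baseline over both arms, to 1 at week 4 and 1 at week 12 against baseline in controls, and to 0 at week 12 against baseline and 1 between week 4 and week 12 in the anti-miR-33 arm. The covariate is confounded with time, so its part cannot be told apart. In the anti-miR-33 arm at week 12 against baseline, 1 gene was called with no filter and 1 with no replicate block, and between week 4 and week 12, 1 with a fixed replicate block. In controls between week 4 and week 12, 1 was called after quantile normalization. The cause of these was not tested. The replicate block, whose pairing comes from animal identifiers, changed no other count of the 9 genes by over 1.5 times.

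Leaving out each animal gave 1 to 4 called genes at week 4 against baseline in controls, 1 to 3 at week 12 against baseline in the anti-miR-33 arm and 1 to 2 in controls, and 0 to 1 and 1 to 2 between week 4 and week 12 in the anti-miR-33 and control arms. Over both arms it gave 4 to 6, 3 to 4 and 3 to 3. With GAPDH alone, the 3′ minus 5′ value changed by -0.41 between week 4 and week 12 (exact permutation p = 0.00635), and with ACTB alone by 0.18 (exact permutation p = 0.178).

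Of all probe sets called, week 12 against baseline over both arms gave 5801, and 1075 with the covariate; with 1 probe set per gene, 3739 of 13634 tested. With the covariate the anti-miR-33 arm gave 184 at week 12 (as reported, 3424; 5486 with array weights) and 2665 at week 4 (as reported, 4385), and controls 688 at week 12 (as reported, 1924). Between week 4 and week 12, no replicate block gave 1698 (as reported, 2646) in the anti-miR-33 arm and 1015 (as reported, 1738) in controls, where leaving out the week 12 array of control animal 5 gave 1109. With 1 probe set per gene, fewer were tested, and the counts were 4871 and 3759 over both arms (as reported, 8173 and 5894), 2546, 2221 and 1705 in the anti-miR-33 arm, and 2465 and 1157 in controls. The single call between arms at week 12, PIN4, went to 0 with 1 probe set per gene, with a trended and robust variance, without the week 12 array of control animal 5 and when 1 of 8 animals was left out, and a fixed block gave 1 call in the change from baseline to week 4 between arms. Leaving out each animal, within-arm counts ran from 723 to 4531.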

Other observations

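Several values of the sets are described here that belong to no comparison of the genes above. The filter left out other tissue macrophage genes as well: TIMD4, a receptor of long-lived Kupffer cells in mice, had a mean of 3.75 over all arrays, MSR1 had 3.98 and SPIC had 3.01, below the 4.459 of the filter, and GPNMB, a gene of lipid-laden macrophages, had 4.04, 3.97 and 4.26 at weeks -5, 4 and 12. CX3CR1, a receptor of patrolling monocytes, had 3.98, 4.24 and 4.41. None of these was tested, and human probes on monkey transcripts give no bound on their level.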
